A study of Rattus norvegicus with 14 samples.

Results

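The class II major histocompatibility genes described here are RT1-Ba and RT1-Bb, the alpha and beta chains of the rat RT1-B molecule, RT1-Da and RT1-Db1, those of RT1-D, RT1-DMa and RT1-DMb, the chains of the peptide editor DM, and Cd74, the invariant chain. Every probe set whose platform gene symbol is one of these 7 names was taken, and each was kept apart. This gave 21 probe sets of the 8740 on the array besides controls, or 7 of 4736 named genes, and 0 of them carried a second symbol. RT1-Bb had 5 probe sets, Cd74 had 4, RT1-Ba and RT1-DMb had 3 each, and RT1-Da, RT1-Db1 and RT1-DMa had 2 each. The genes were picked because earlier results from the same arrays showed higher values in deficient livers, so their diet differences are given as a description, with no p.

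The arrays measured total RNA from livers of male rats aged 74 days that had been fed a vitamin A-deficient or a vitamin A-sufficient diet for 53 days. Each diet had 4 arrays, numbered 1 to 4, made from about 10 µg of RNA and 3 arrays, numbered 1, 2 and 4, from about 2 µg. The sources used here name neither the strain nor what the diets contained. The arrays carrying a given number within a diet were averaged once the shift between the RNA amounts had been taken out. Each average is called an animal (n = 4 per diet), although no label ties 2 arrays to a single liver. The spread between animals may therefore be partly technical, and animal 3 of each diet rests on 1 array. Levels are log2 of the scaled intensity plus 16, so an intensity of 0 becomes 4. Differences are deficient minus sufficient, with a standard error (SE) from the spread of the 4 animals of each diet. In a whole liver, more cells of a type and more RNA per cell cannot be told apart.

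Class II molecules are alpha-beta pairs that display peptides from engulfed proteins to CD4 T cells. Cd74 escorts the newly made pairs to endosomes and blocks their groove, lysosomal cathepsins cut it down to a short fragment, and DM removes that fragment and selects tightly bound peptides. In liver the genes are known to be expressed mainly by dendritic cells, B cells and macrophages such as Kupffer cells, with little in resting hepatocytes. Their promoters share an X box and a Y box, which bind the RFX and NF-Y factors and recruit the co-activator Ciita.

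The promoters of the members are shown because class II genes are known for a common promoter plan. The letters searched for it were not found in every window. RefSeq windows of 250 bases before to 50 after the start on GRCr8 were found for 6 of the 7 genes, the exception being RT1-DMb, and 70 bases of each are printed 5′ to 3′ on the gene's strand. Capitals mark the Y box core GATTGG, the X box core ACNGATG where it lies up to 45 bases before it, and in Cd74 the letters CCAAT.
RT1-Ba: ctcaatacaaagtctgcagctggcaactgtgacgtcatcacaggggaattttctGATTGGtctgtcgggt
RT1-Bb: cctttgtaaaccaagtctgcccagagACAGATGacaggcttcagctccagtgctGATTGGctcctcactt
RT1-Da: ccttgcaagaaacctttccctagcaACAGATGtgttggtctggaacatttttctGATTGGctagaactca
RT1-Db1: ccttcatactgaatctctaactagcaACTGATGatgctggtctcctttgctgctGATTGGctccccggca
RT1-DMa: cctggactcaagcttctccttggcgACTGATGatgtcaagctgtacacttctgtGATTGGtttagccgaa
Cd74: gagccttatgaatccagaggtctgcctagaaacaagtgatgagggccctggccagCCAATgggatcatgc

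The printed stretches lie at chr20:4576959-4577028 on the plus strand for RT1-Ba, chr20:4604165-4604234 on the minus strand for RT1-Bb, chr20:4515311-4515380 on the plus strand for RT1-Da, chr20:4560228-4560297 on the minus strand for RT1-Db1, chr20:4712385-4712454 on the minus strand for RT1-DMa and chr18:56526962-56527031 on the plus strand for Cd74. Searched on both strands of the whole window, GATTGG was present in 5 of the 6 members and in 14.8% of all 33469 promoter windows. It overlaps CCAAT, whose reverse complement is ATTGG and which was present in all 6 members and in 37.5% of windows. ACNGATG was present in 4 members and in 10.2% of windows. The 2 cores in this order and strand, up to 45 bases apart, were found in RT1-Bb, RT1-Da, RT1-Db1 and RT1-DMa, at 28 or 29 bases from start to start, and in 18 windows in all (0.0538%). The X box letters were written down after these promoters had been read and then shortened once, so the shares describe the windows, and no binding was measured.

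Over all 8740 probe sets, 5244 passed a filter on dim signal at the 40th percentile of the mean level (6.20). Of the members, 19 passed, and the 2 under the filter were probe sets of RT1-Bb. Every array had been scaled to one trimmed mean before deposit, between 1001.9 and 1002.1. Precision depends on the number of arrays and on the spread between animals, and the SE of member differences ran from 0.06 to 1.11. As a sign of RNA quality, the 3' over 5' log2 ratio ranged from 0.58 to 1.12 in deficient animals and from 0.62 to 0.94 in sufficient animals for GAPDH, and from 0.35 to 0.70 against 0.38 to 0.77 for beta-actin, so the diets overlapped in both.

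Class II and Cd74 signal was higher in deficient livers in nearly every probe set. The difference was above 0 in 20 of 21 probe sets, with a median of 0.81 on the log2 scale, against a median of 0.04 over all 5244 tested probe sets, of which 58.4% had a difference above 0. Every deficient animal lay above every sufficient animal in 12 of the 19 tested member probe sets, a pattern seen in 5.84% of all tested probe sets. The members were part of the limma fit over all probe sets, which called 6 of the 19, where 1.72% of all tested probe sets were called in either direction and 0.725% of all tested probe sets were called higher. As the genes were chosen on this contrast, these counts are no test of the members and nothing is read from them. The count of 6 ranged from 1 to 13 over 22 alternatives. It fell to 1 when the arrays were given a common median and to 2 without deficient animal 4, without sufficient animal 2 or without sufficient animal 3.

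**Figure D1:**
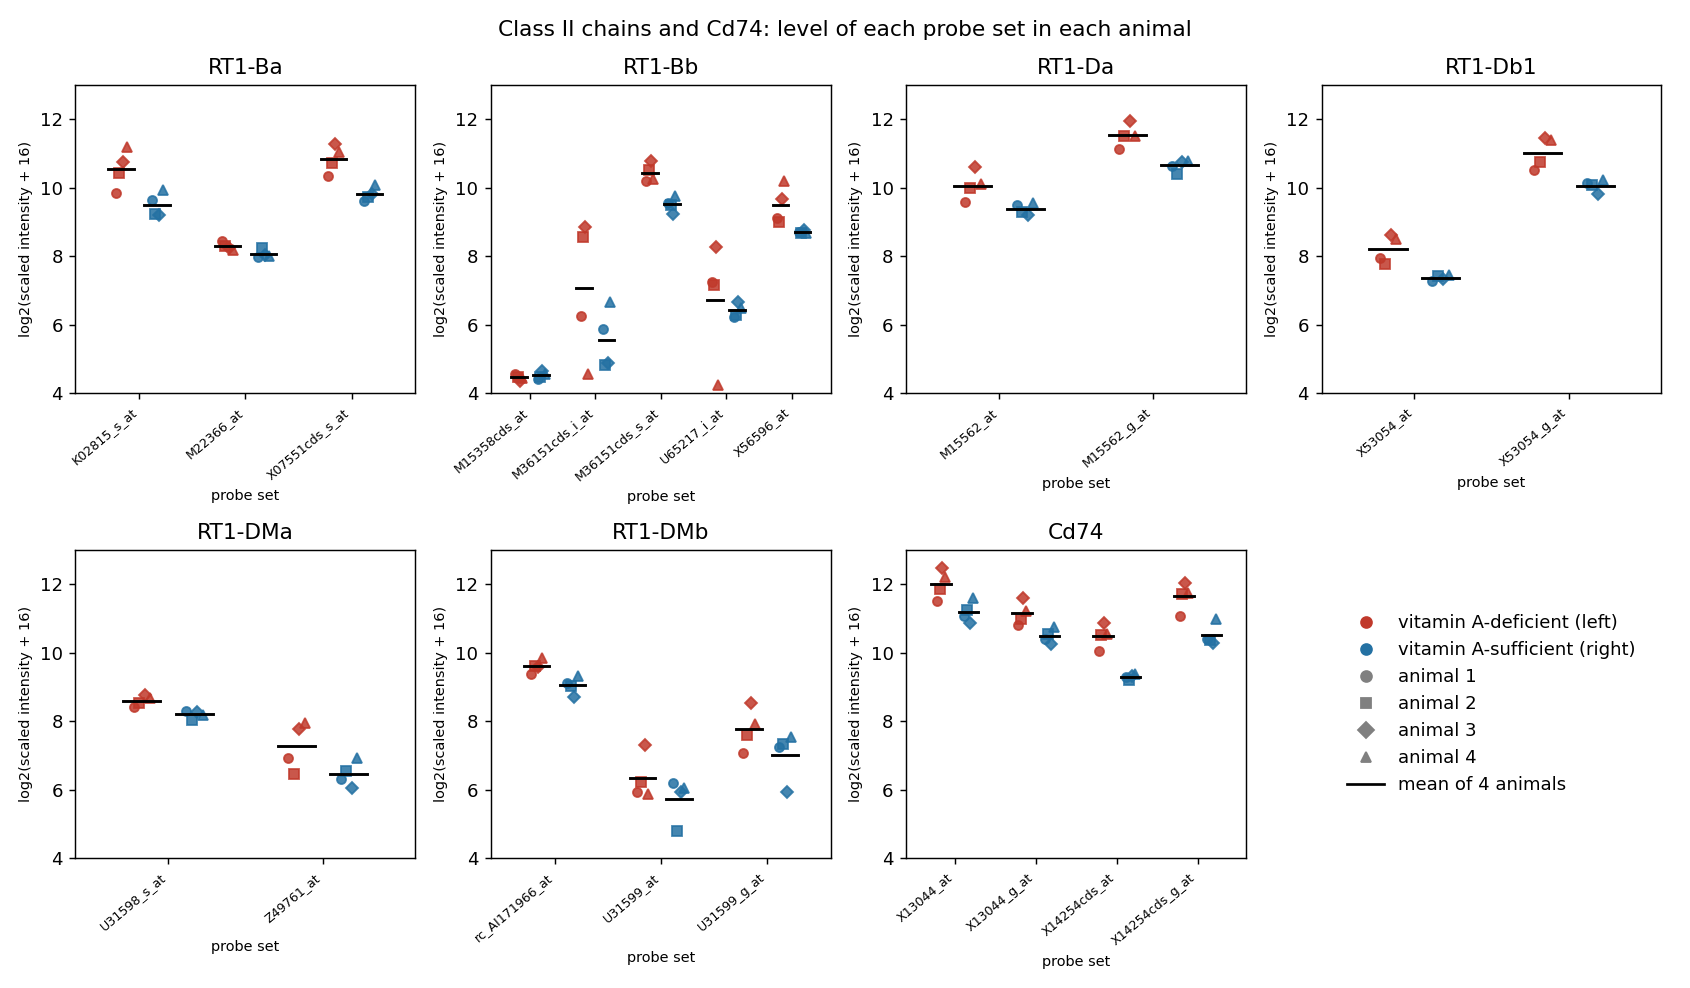
Level of each member probe set, as log2 of the scaled intensity plus 16, in the 4 deficient animals (left of each pair) and the 4 sufficient animals (right), with the mean as a bar and 1 panel per gene. Both Db1 probe sets and 3 of 4 Cd74 probe sets have all deficient points above all sufficient points, whereas the points of 2 RT1-Bb probe sets are widely scattered.

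Among the alpha chains, RT1-Ba was measured by 3 probe sets that did not behave alike. By X07551cds_s_at its level was 10.34, 10.71, 11.27 and 11.05 in deficient animals 1 to 4, against 9.62, 9.72, 9.82 and 10.08 in sufficient animals 1 to 4. The groups did not overlap, and the difference was 1.03 (SE 0.23), or 2.04-fold. By K02815_s_at the deficient levels were 9.85, 10.43, 10.76 and 11.18, against sufficient levels of 9.63, 9.23, 9.19 and 9.92, a difference of 1.06 (SE 0.33). Here deficient animal 1 lay below sufficient animal 4. The remaining probe set, M22366_at, gave 8.44, 8.30, 8.25 and 8.18 in deficient animals against 7.98, 8.24, 8.04 and 8.01 in sufficient animals. Its difference of 0.23 (SE 0.08) was the smallest of the 19 tested, and it ranked the deficient animals in the reverse of the order given by K02815_s_at.

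RT1-Da, the alpha chain of RT1-D, was higher in deficient animals by both of its probe sets without overlap. By M15562_g_at its level was 11.13, 11.51, 11.95 and 11.50 in deficient animals, against 10.65, 10.41, 10.76 and 10.78 in sufficient animals, a difference of 0.88 (SE 0.19) or 1.84-fold. By M15562_at the deficient levels ranged from 9.58 to 10.60 and the sufficient levels from 9.21 to 9.56, at a difference of 0.68 (SE 0.23). Deficient animal 3 was the highest and deficient animal 1 the lowest of its diet by both. The lowest deficient and the highest sufficient value of M15562_at were close together.

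The beta chain of RT1-D, RT1-Db1, had levels of 10.51, 10.74, 11.44 and 11.39 by X53054_g_at in deficient animals, against 10.12, 10.07, 9.80 and 10.23 in sufficient animals. The difference was 0.96 (SE 0.25), or 1.95-fold. By X53054_at the levels were 7.95, 7.78, 8.61 and 8.50 in deficient animals and 7.29, 7.43, 7.33 and 7.46 in sufficient animals, at a difference of 0.83 (SE 0.21). Deficient animals 3 and 4 were the higher pair by both probe sets, and the diets did not overlap in either.

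RT1-Bb, the beta chain of RT1-B, gave the least uniform picture of the 7 genes. By M36151cds_s_at its level was 10.20, 10.52, 10.78 and 10.26 in deficient animals, against 9.56, 9.49, 9.25 and 9.77 in sufficient animals, a difference of 0.92 (SE 0.17) or 1.90-fold with no overlap. By X56596_at the deficient levels were 9.12, 9.01, 9.67 and 10.21, against sufficient levels of 8.71, 8.69, 8.75 and 8.67. These groups did not overlap either, but the deficient SD of 0.55 was many times the sufficient SD of 0.04, and the difference of 0.80 had an SE of 0.28.

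The 3 other RT1-Bb probe sets did not separate the diets. By U65217_i_at the level was 7.25, 7.15, 8.25 and 4.24 in deficient animals and 6.22, 6.29, 6.68 and 6.48 in sufficient animals. Deficient animal 4, the highest of all by X56596_at, was thus near the floor of the scale by U65217_i_at, while the other 3 deficient animals lay above all sufficient animals. The array values behind it were 4.26 from 10 µg and 4.13 from 2 µg, so the low value appeared on both arrays of that number. Its difference of 0.31 (SE 0.87) became -0.20 without deficient animal 3 and 1.14 without deficient animal 4. By M36151cds_i_at, which was under the filter, deficient animals 2 and 3 had 8.56 and 8.86, deficient animals 1 and 4 had 6.26 and 4.56, and sufficient animals 1 to 4 had 5.88, 4.83, 4.89 and 6.66. Deficient animal 4 was again the lowest, at 4.28 on its 10 µg array and 4.32 on its 2 µg array. M15358cds_at stayed between 4.36 and 4.56 in deficient animals and between 4.43 and 4.64 in sufficient animals, near the bottom of the scale, at a difference of -0.06 (SE 0.06). In the platform's naming, the ending _i_at marks probe sets with fewer probes than the standard number. What these probes bind, and whether that differed between animals, was not tested.

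For the peptide editor, RT1-DMa by U31598_s_at had 8.42, 8.53, 8.75 and 8.68 in deficient animals, against 8.31, 8.05, 8.27 and 8.19 in sufficient animals. The groups did not overlap, at a difference of 0.39 (SE 0.09), or 1.31-fold. By Z49761_at the deficient levels were 6.92, 6.47, 7.79 and 7.94 and the sufficient levels 6.31, 6.55, 6.07 and 6.94, a larger difference of 0.81 (SE 0.40) with overlapping groups. RT1-DMb, its partner chain, was read most evenly by rc_AI171966_at, with 9.38, 9.61, 9.58 and 9.85 in deficient animals and 9.11, 9.04, 8.72 and 9.32 in sufficient animals. That difference was 0.56 (SE 0.16), or 1.47-fold, with no overlap. The other RT1-DMb probe sets, U31599_at and U31599_g_at, overlapped between the diets at differences of 0.59 (SE 0.46) and 0.76 (SE 0.47). By U31599_g_at, sufficient animal 3 stood low at 5.95, against 7.25 to 7.54 in the other sufficient animals.

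Cd74 was higher in deficient livers by all 4 of its probe sets. By X14254cds_at its level was 10.04, 10.51, 10.86 and 10.55 in deficient animals, against 9.30, 9.21, 9.31 and 9.37 in sufficient animals. The difference of 1.19 (SE 0.17), or 2.29-fold, was the largest of the 19 tested member probe sets, and the sufficient animals differed from each other by little. By X14254cds_g_at the levels were 11.08, 11.71, 12.05 and 11.76 in deficient animals and 10.41, 10.36, 10.28 and 10.99 in sufficient animals, at a difference of 1.14 (SE 0.26). Both of these probe sets kept the diets apart. By X13044_at, with 11.51, 11.85, 12.48 and 12.23 in deficient animals and 11.06, 11.26, 10.86 and 11.61 in sufficient animals, deficient animal 1 lay just below sufficient animal 4. The X13044_at difference was 0.82 (SE 0.27) and that of X13044_g_at 0.66 (SE 0.20), so the size of the Cd74 difference ranged from 0.66 to 1.19 by probe set.

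**Figure D2:**
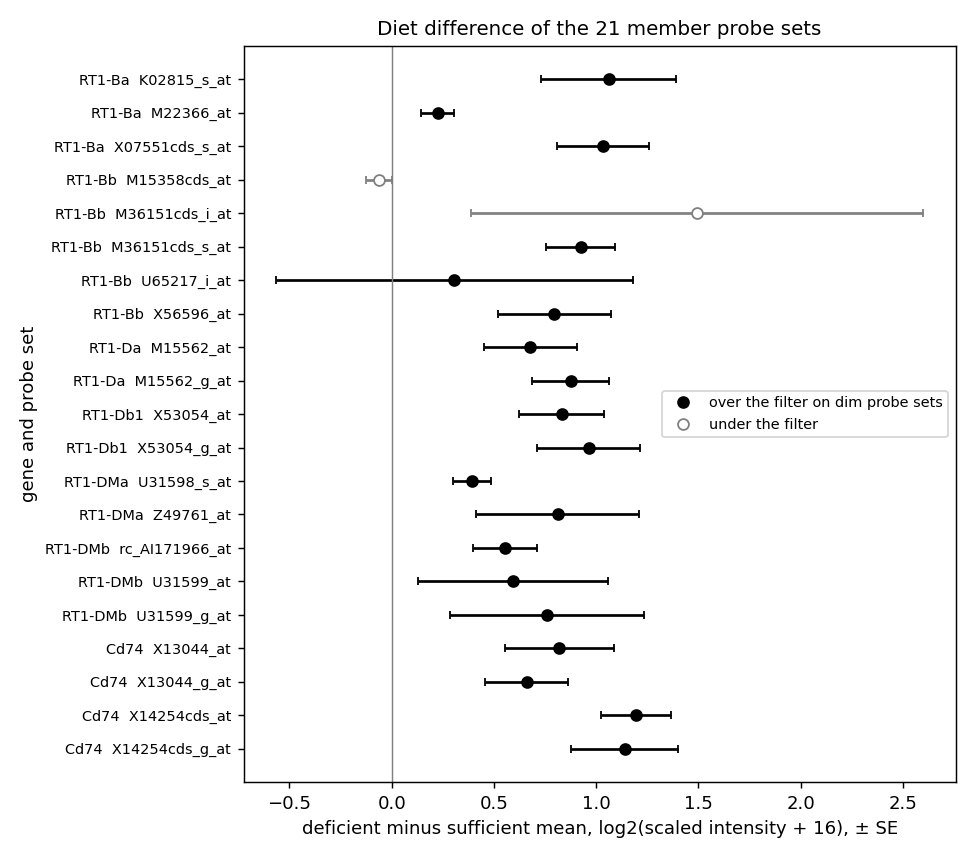
Deficient minus sufficient mean (log2 scale) with its SE for the 21 member probe sets, grouped by gene. Tested probe sets lie between 0.23 and 1.19, and the open points under the filter are those of RT1-Bb at -0.06 and 1.49.

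Class II genes have near relatives, RT1-Db1 among them, and the endings _s_at and _g_at mark probe sets that can be shared by related transcripts. The gene behind a single probe set is therefore uncertain, and whether the animals shared the same class II sequence was not tested. With each RNA amount taken alone, the difference was above 0 in 20 of 21 probe sets at either amount and in 19 at both. The median difference was 0.69 in the 2 µg arrays (3 against 3) and 0.79 in the 10 µg arrays (4 against 4). Groups of single arrays did not overlap in 14 probe sets at 2 µg and in 9 at 10 µg. The share over all probe sets was not counted at either amount, so nothing is read from these counts. Groups of 3 also separate more easily by chance than groups of 4, so the 2 counts cannot be compared. U65217_i_at of RT1-Bb was the one tested probe set whose sign differed, at -0.31 from 2 µg and 0.45 from 10 µg. These are the same animals as far as the numbers tell and do not stand as separate evidence.

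**Figure D3:**
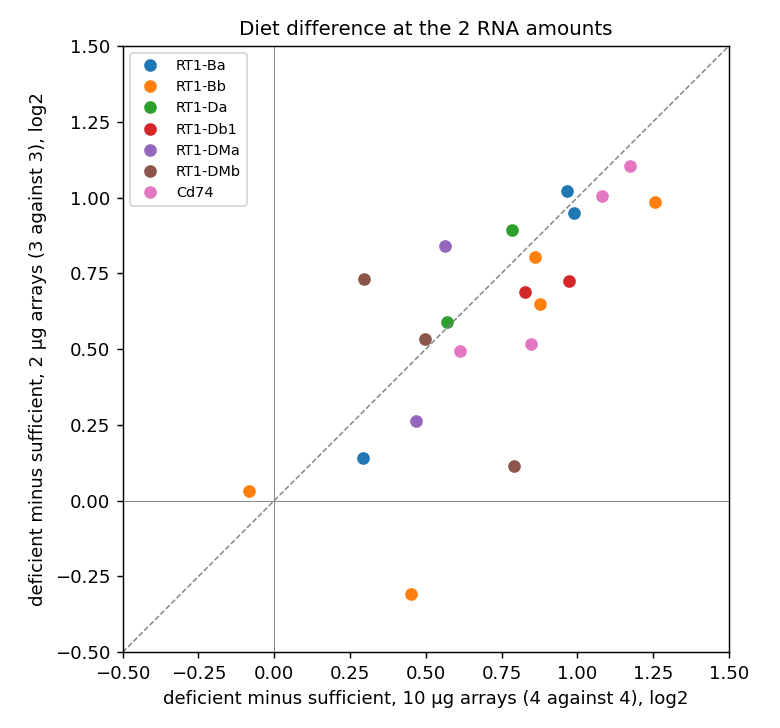
Diet difference of each member probe set in the 2 µg arrays (vertical axis) against that in the 10 µg arrays (horizontal axis), both on the log2 scale, coloured by gene, with the line of equal values dashed. Most points lie near the line. U65217_i_at of RT1-Bb is at -0.31 from 2 µg, and U31599_g_at of RT1-DMb is at 0.11 from 2 µg and 0.79 from 10 µg.

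The RNA amount played no part in choosing the genes, and its effect on them was tested. In limma, with 14 separate arrays and diet as a covariate, 0 of 19 member probe sets differed between 2 µg and 10 µg, and 0 of 5244 probe sets did (0%), while 347 (6.62%) had an unadjusted p under 0.05, of which 0 were members. The differences of 2 µg minus 10 µg ranged from -0.38 to 0.65 with a median of -0.05. The smallest p values among members were those of RT1-Db1 by X53054_g_at (mean 10.20 at 2 µg and 10.54 at 10 µg, difference -0.34, SE 0.17, limma adjusted p = 0.764), RT1-DMb by U31599_at (mean 6.69 at 2 µg and 6.04 at 10 µg, the second under the filter of 6.20 that it passed by its mean over all arrays; 0.65, SE 0.35, limma adjusted p = 0.818), Cd74 by X14254cds_g_at (-0.33, SE 0.18, limma adjusted p = 0.819) and Cd74 by X14254cds_at (-0.20, SE 0.12, limma adjusted p = 0.827).

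With diet and number as a replicate block, the amount comparison called 2 of 5244 probe sets (0.0381%) and 0 members in limma, and 5 members had an unadjusted p under 0.05, as did 12% of all tested probe sets. In that fit RT1-Db1 by X53054_g_at was lower at 2 µg by -0.31 (SE 0.07, limma adjusted p = 0.128). All 6 pairs of arrays had this sign, with differences between -0.56 and -0.15, and the result fails the correction. Over the 6 pairs, the median SD of a member's pair difference was 0.20. U31599_at of RT1-DMb was the least repeatable tested member, with pair differences from -0.36 to 2.04.

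Whether the diet difference depended on the RNA amount was tested by the interaction. In limma 0 of 19 member probe sets and 0 of 5244 in all (0%) passed, with 0 members and 96 probe sets (1.83%) at an unadjusted p under 0.05. The member differences of differences ranged from -0.76 for U65217_i_at of RT1-Bb to 0.43, and the smallest limma adjusted p was 0.9995. With the replicate block 0 members and 0 probe sets (0%) passed, and 0 members and 3.76% of probe sets had an unadjusted p under 0.05. With 4 and 3 arrays per group these limits were wide. Without the block the SE of the interaction was 0.26 for RT1-Da by M15562_g_at and for Cd74 by X14254cds_at. It was 1.10 for U65217_i_at of RT1-Bb. With the block these SEs were 0.14, 0.16 and 0.41.

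Deviations of each animal from the mean of its own diet do not use the diet contrast, and they show how the members varied together. Across 8 animals the median correlation over the 171 pairs of tested member probe sets was 0.61. It was 0.77 over the 18 pairs of probe sets of the same gene and 0.61 over pairs of different genes. Of the 171 correlations, 143 were above 0 and 102 were above 0.5, with a range of -0.87 to 0.98. Pairs of other probe sets were not counted, so these values do not say whether members varied together more than others did. All probe sets of an animal come from the same arrays, and the 8 deviations hold fewer independent values than animals, so these correlations are a description.

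The mean of the scaled deviations over the 19 probe sets gave a class II profile. It was -1.01, -0.37, 1.07 and 0.31 in deficient animals 1 to 4 and 0.00, -0.16, -0.42 and 0.57 in sufficient animals 1 to 4, so deficient animals 1 and 3 were the ends of the range. RT1-Da by M15562_at followed it most closely (r = 0.97), with Cd74 by X13044_g_at (r = 0.96) and X13044_at (r = 0.95). RT1-Db1 by X53054_g_at had r = 0.94 and RT1-Ba by X07551cds_s_at had r = 0.93. At the other end were U65217_i_at of RT1-Bb (r = 0.02) and M22366_at of RT1-Ba (r = -0.59). The member probe sets are part of the profile that they are set against.

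**Figure D4:**
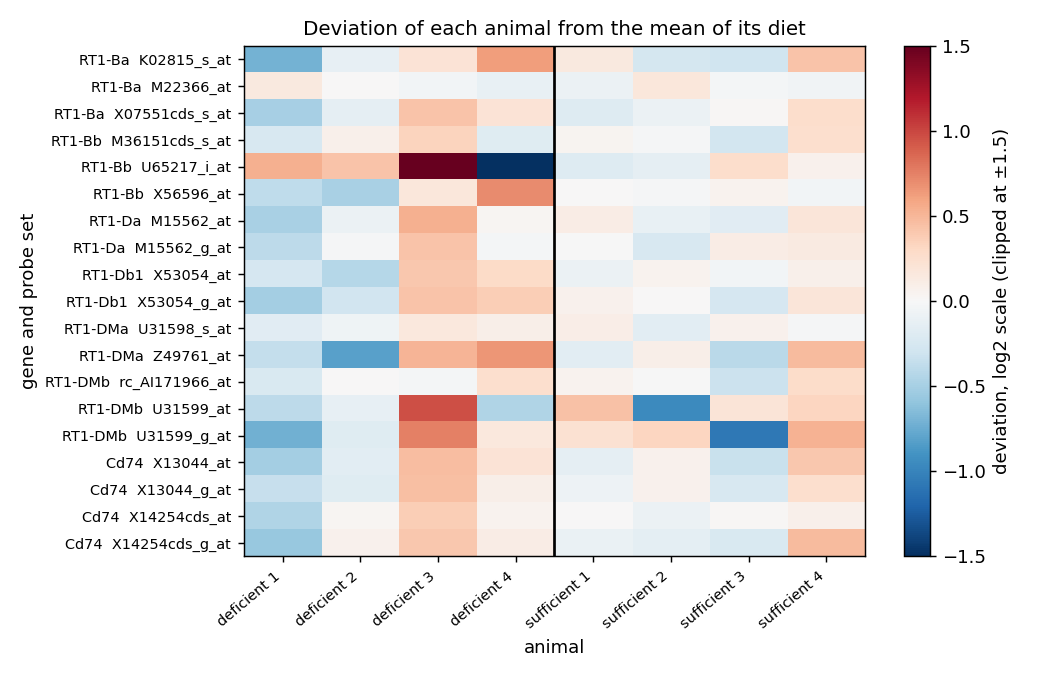
Deviation of each of the 8 animals (columns) from its diet mean for the 19 tested member probe sets (rows), on the log2 scale with colours limited at 1.5. Most rows are low in deficient animal 1 and high in deficient animal 3, and the rows of U65217_i_at and M22366_at depart from that pattern.

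Of 4310 other tested probe sets with 1 symbol, the 10 with the highest correlation to the class II profile over the 8 animals lay between 0.94 and 0.99. They were Errfi1, a feedback inhibitor of the EGF receptor (r = 0.99), Lamp1, a lysosomal membrane protein (r = 0.96), the neurotrophin Ntf3 (r = 0.96), Rpl18, a ribosomal protein (r = 0.95), Grin1, a glutamate receptor subunit (r = 0.95), both probe sets of Dusp1, a phosphatase of MAP kinases (r = 0.95 each), the lysosomal growth factor precursor Grn (r = 0.94), Dynlt1, a dynein light chain (r = 0.94), and A2m, a protease inhibitor (r = 0.94). Among them, 0 were called by diet in limma. Their diet differences went both ways, from -0.62 (limma adjusted p = 0.352) for Errfi1 to 0.76 (limma adjusted p = 0.265) for Ntf3. Between 2 and 7 of the 10 stayed among the 10 most alike when 1 animal was left out, and 4 did in the 10 µg arrays alone.

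The other genes of the class II pathway were read from a list of 21, of which 16 were on the array and 12 had a tested probe set. Of the 15 tested probe sets, 1 rose and 14 did not pass, with a median difference of 0.16 and 12 of 15 above 0. The summed intensity of the list was 22753 to 24963 in deficient animals and 17501 to 19520 in sufficient animals, without overlap. Such a sum weighs bright probe sets most, and the brightest of this list was 1 of those of Ctsl. Ctsl, a cathepsin that trims the invariant chain in mouse thymic epithelium, rose 1.48-fold by rc_AI176595_s_at, with means of 13.10 ± 0.13 in deficient and 12.54 ± 0.12 in sufficient livers (SD, n = 4 each; difference 0.56, SE 0.10, limma adjusted p = 0.0183). Its other probe set did not pass (0.60, limma adjusted p = 0.0869). The Ctsl call was lost in 3 of 8 fits that left out 1 animal, at adjusted p of up to 0.0608 without sufficient animal 2 (without deficient animals 2 and 4 in the others), with a common median (0.50, limma adjusted p = 0.108), without the trend (limma adjusted p = 0.0644), with just the 2 µg arrays (limma adjusted p = 0.157) and with the number across diets as a block (limma adjusted p = 0.0543).

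Ctss, the cathepsin that does this work in antigen-presenting cells, had 11.54 ± 0.21 in deficient and 10.89 ± 0.27 in sufficient livers and did not pass (0.65, SE 0.16, limma adjusted p = 0.0696). Rfx5, a subunit of the X box factor, had 7.23 ± 0.13 and 6.89 ± 0.27 (0.34, limma adjusted p = 0.405). RT1-DOa, the alpha chain of the DM inhibitor DO, had 9.46 ± 0.11 in deficient and 9.56 ± 0.12 in sufficient livers (-0.10, limma adjusted p = 0.796). Its partner RT1-DOb was under the filter, at 4.48 ± 0.13 and 4.65 ± 0.11. The Y box subunits Nfya, Nfyb and Nfyc did not pass. Ciita was not analysed here.

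Class I genes and interferon targets were read alongside, because they share inducers with class II. Of 26 tested probe sets of class I presentation, 0 passed in limma, with a median difference of -0.09, and 2 had an unadjusted p under 0.05, those of Calr (-0.37, SE 0.14, limma adjusted p = 0.250) and Pdia3 (-0.40, SE 0.16, limma adjusted p = 0.271), both folding factors of the endoplasmic reticulum. B2m, the light chain of class I, had 13.20 ± 0.15 in deficient and 13.19 ± 0.07 in sufficient livers (0.01, limma adjusted p = 0.984). Of 15 tested probe sets of the interferon list, 1 rose and 14 did not pass, with a median of 0.13 and 12 of 15 above 0. The summed intensity of that list was 7993 to 12367 in deficient animals and 5949 to 7600 in sufficient animals, without overlap, and its part in the class II values was not tested. Such a sum weighs bright probe sets most, and the brightest of this list was that of Ifitm3, so it does not describe the list as a whole. Ifitm3, an antiviral membrane protein, rose 2.01-fold (12.31 ± 0.40 in deficient, 11.31 ± 0.24 in sufficient livers; 1.00, SE 0.19, limma adjusted p = 0.0231). That call was lost in 6 of 8 fits that left out 1 animal, at adjusted p of up to 0.0846, all but those without deficient animal 2 or sufficient animal 4, and under 9 of 22 alternatives in all (limma adjusted p up to 0.218). The receptor chain Ifngr1 (0.48, limma adjusted p = 0.282) and the feedback inhibitor Socs3 (0.53, limma adjusted p = 0.354) did not pass.

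Markers of the cells that carry class II were sparse among the measured genes, and Cd79a, Ms4a1, Itgax, Cd68 and Cd163 were not analysed here. For macrophages, 10 of 23 marker genes were measured and 1 of 12 tested probe sets passed, with a median difference of 0.24 and 11 of the 12 above 0. The summed intensity of the list was 11226 to 13782 in deficient animals and 9581 to 10380 in sufficient animals, without overlap, and its part in the class II values was not tested. A median of this size was not particular to macrophages, as hepatocytes had 0.21 and cholangiocytes 0.42. The cholangiocyte sum did not overlap between the diets either, and such sums weigh bright probe sets most. The medians of the dendritic cell, T and NK cell, stellate and erythroid lists were below 0. Lgals3, a galectin, rose 1.71-fold (9.50 ± 0.31 in deficient, 8.73 ± 0.21 in sufficient livers; 0.77, SE 0.17, limma adjusted p = 0.0490), a call lost whichever of the 8 animals was left out (limma adjusted p up to 0.135) and under 16 of 22 alternatives in all (limma adjusted p up to 0.161). The Kupffer cell lectin Clec4f had 10.15 ± 0.29 and 9.82 ± 0.10 (0.32, limma adjusted p = 0.350), and the complement subunit C1qb 10.55 ± 0.18 and 10.14 ± 0.26 (0.41, limma adjusted p = 0.237).

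For B cells, 3 of 13 markers were measured and 0 of 3 tested probe sets passed, with 2 of the 3 above 0. Cd79b, a signalling chain of the B cell receptor, had 6.71 ± 0.08 in deficient and 6.14 ± 0.40 in sufficient livers, close to the filter (0.58, limma adjusted p = 0.272), and Cd24 had 0.67 (limma adjusted p = 0.264). Fcer2, the brightest of the 3, had 7.83 in deficient and 7.85 in sufficient livers (-0.02, limma adjusted p = 0.968). The summed intensity of the list was 408 to 567 against 288 to 439, and its part in the class II values was not tested. For dendritic cells, 3 of 10 markers were measured, and Clec9a, the 1 gene over the filter, had 6.30 in both diets (limma adjusted p = 0.997), with a sum of 148 to 175 in deficient and 156 to 206 in sufficient animals. Of 7 tested pan-leukocyte probe sets 0 passed, with a median of 0.37 and 7 of 7 above 0. Cd48 (0.37, limma adjusted p = 0.246) and Cd53 (0.52, limma adjusted p = 0.354) had the smallest p values, and the sum was 1090 to 1396 against 907 to 1121. Of 7 tested T and NK cell probe sets 0 passed, with a median of -0.08, among them Lck (-0.44, limma adjusted p = 0.249) and Cd5 (-0.19, limma adjusted p = 0.747). All 4 measured neutrophil markers were under the filter.

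Further lists covered other cell types in the tissue, and the erythroid list was the one with more than 1 call. Of 9 tested endothelial probe sets, 1 fell, that of Lyve1, a receptor of sinusoidal endothelium (7.43 ± 0.23 in deficient, 8.47 ± 0.23 in sufficient livers; -1.04, SE 0.16, limma adjusted p = 0.00731; 0.0947 in the 2 µg arrays alone), while Aqp1 (-1.04, limma adjusted p = 0.0563) and Icam1 (0.28, limma adjusted p = 0.414) did not pass. Of 21 stellate and mesenchymal probe sets, 1 rose, that of Vim, a filament protein also found in leukocytes (0.80, SE 0.17, limma adjusted p = 0.0357), a call lost in 6 of 8 fits that left out 1 animal, the exceptions being deficient animals 1 and 3 (limma adjusted p up to 0.111), and under 10 of 22 alternatives in all (limma adjusted p up to 0.451). Col1a1 (-0.85, limma adjusted p = 0.121) and Timp1 (0.83, limma adjusted p = 0.181) did not pass. Of 6 erythroid probe sets 4 fell, those of Hbb (-1.46), Hbb-b1 (-1.32), Alas2 (-1.23) and Hba-a3 (-0.98), at limma adjusted p of 0.00178 to 0.00401, and Slc4a1 did not pass. Of 7 cholangiocyte probe sets, with Krt8 (0.67, limma adjusted p = 0.0624) and Spp1 (0.62, limma adjusted p = 0.121), and of 22 hepatocyte probe sets, with Cyp2e1 (0.43, limma adjusted p = 0.0690) and Ass1 (0.48, limma adjusted p = 0.0857), 0 passed. All 22 hepatocyte differences were above 0, with a median of 0.21. The cholangiocyte sum was 6215 to 8351 in deficient and 4819 to 5868 in sufficient animals, without overlap. The part of these lists in the class II values was not tested.

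**Figure D5:**
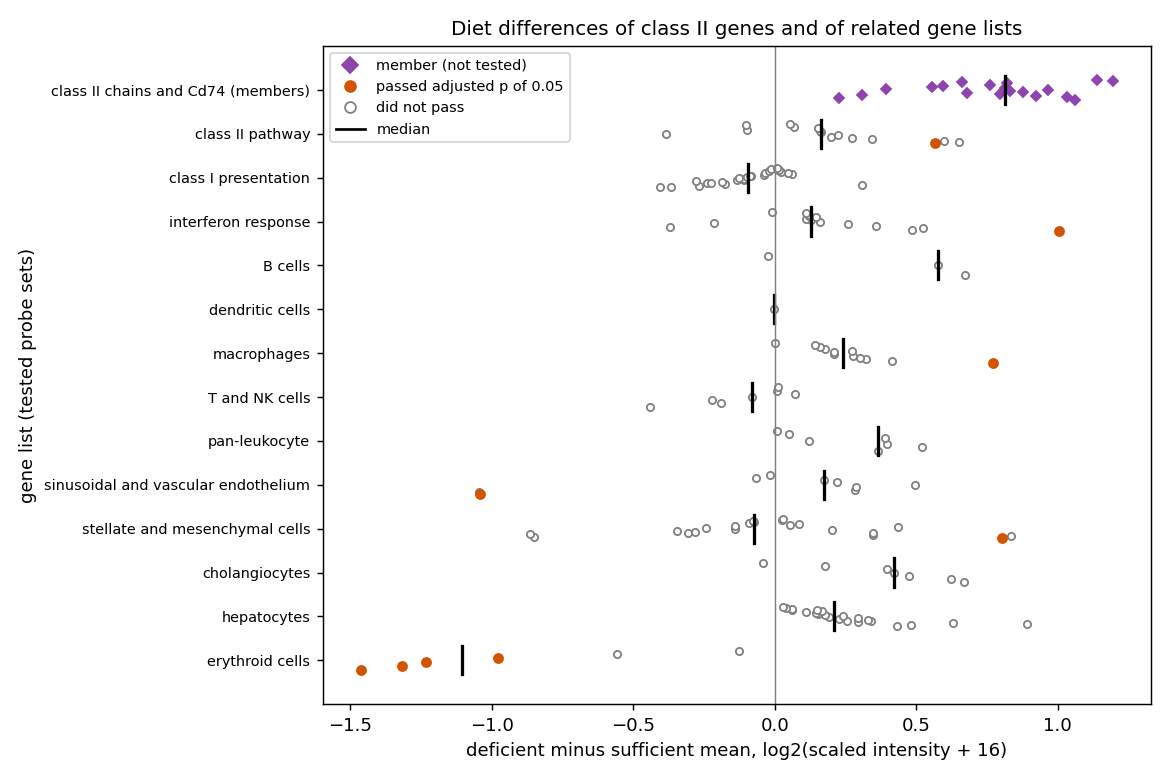
Deficient minus sufficient mean (log2 scale) of each tested probe set in the class II members and in 13 gene lists, with the median of each list as a bar. Filled circles passed an adjusted p of 0.05 in limma. The members are diamonds labelled not tested. They were in the same fit, but their calls are not marked, as the genes were chosen on this contrast. The member median is 0.81, against 0.16 for the class II pathway, -0.09 for class I presentation and 0.24 for macrophages.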

How the data were processed

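The deposited table holds intensity values from the authors for 8799 probe sets on 14 Affymetrix rat liver arrays. Per the labels' protocols, about 10 or 2 µg of total RNA went into standard Affymetrix target preparation; the program and scaling were not given in the sources used here. After 59 controls were left out, arrays were brought to the same trimmed mean of 500 (2% off each end). From the deposited intensity, log2 of the scaled intensity plus 16 was computed, which understates changes of dim genes. Symbols came from the platform annotation, and 6985 of 7006 probe sets with 1 symbol matched RefSeq GRCr8, with 0 symbols changed.

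The diet fit used limma 3.58.1 (R 4.3.3; lmFit, eBayes with trend) on 8 values, arrays of the same diet and number averaged after the mean shift over 6 pairs was removed. Amount and interaction were fitted on 14 arrays. P-values are two-sided, Benjamini-Hochberg adjusted, at 0.05. The fits were checked on simulated arrays. Arrays of 1 diet and number at both amounts deviated together (r 0.20 to 0.35 in 6 of 6 pairs), so the numbers pair them; that basis is the correlation and the number, not a stated shared liver.

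The members, 14 gene lists and the naming rule were chosen with earlier results of these data known. The rule names every member, list genes that passed with up to 2 others per list, the 10 most alike probe sets and up to 4 members per amount test. The trimmed mean leaves controls out because that matched an earlier count of calls more closely, a choice made after seeing the count. RT1-DOa, RT1-DOb, B2m, Fcer2 and the Nfy genes were named after their values were seen.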

Additional observations from a re-analysis of the deposited data

Results flagged for a closer look

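In 4 animals of 1 diet, a value far from the other 3 was found for 7 of 128 groups of named probe sets. Chance flags about 1 in 20, so the count is close to that of chance. None of the 7 was a member. The cathepsin Ctss was high in deficient animal 3 (11.86, against 11.38 to 11.46 in the others). So were Lgals3 (9.96, against 9.30 to 9.41) and Cd5 (6.76, against 6.24 to 6.31) in deficient animal 3. Ifitm3 was high in sufficient animal 4 (11.67, against 11.17 to 11.22). Cyp2e1 was low in deficient animal 3 (15.04, against 15.32 to 15.36) and in sufficient animal 2 (14.61, against 14.89 to 14.94). Hbb was low in deficient animal 1 (10.86, against 11.66 to 11.73).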

How the results depend on the processing

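Over 22 alternatives the median diet difference of the members stayed between 0.67 and 0.93 (0.67 to 0.93 with 1 animal left out), and 19 or more of 21 probe sets stayed above 0. Over all probe sets 90 were called, 33 in the 2 µg arrays alone, 349 with 14 separate arrays, 250 when diet and number formed a random block and 48 to 94 with 1 animal left out, the lowest counts being 48 without deficient animal 4 and 59 without sufficient animal 3. A common median gave 75, with 17 higher and 58 lower against 38 and 52, and moved the median of all probe sets from 0.04 to -0.02. With the number across diets as a replicate block 78 probe sets were called; these numbers are shared without a stated pairing. For the RNA amount, 0 probe sets were called, 2 with the replicate block, 1 without the arrays that have no partner and 0 to 2 with 1 animal left out (2 without sufficient animal 1, 1 without sufficient animal 3). The interaction gave 0 throughout 18 alternatives. Of the 10 most alike probe sets, 6 were shared with a common median, 9 with a pseudocount of 64, 4 in the 10 µg arrays alone and 2 to 7 with 1 animal left out, a choice made after seeing the data. No called result reversed, but the uncalled U65217_i_at of RT1-Bb fell below 0 in the 2 µg arrays alone (-0.31) and without deficient animal 3 (-0.20), among others.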
